A study of Homo sapiens and Mus musculus with 21 samples.

Results

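Human transcripts of SW480 tumours carrying dnLEF1 were compared with those of SW480 tumours carrying Mock. SW480 is an established human colon adenocarcinoma line, and dnLEF1 is a version of LEF1, a transcription factor of the Wnt pathway, that acts as a dominant negative. All libraries with those line and construct labels were used: 3 of SW480 dnLEF1 and 3 of SW480 Mock, which are 6 of the 18 libraries with human values and 6 of the 21 in the study. The cells of every group had been injected into the caecum wall of immunodeficient NSG mice, and the caecum was frozen at 28 days. RNA of whole caecum fragments was sequenced with a Smart-seq2 protocol, so mouse tissue was present and human genes were given in a table of their own. The other libraries used here for comparison were SW620 dnLEF1 and SW620 Mock, 3 of each, made the same way, SW620 being a line from a metastasis of the same patient. Fits of all 18 libraries also held 3 of SW620 LRP6KO, cells that received CRISPR reagents against LRP6, a Wnt co-receptor, and 3 of their control SW620 Cas9. The design text calls the triplicates biological, but the sample labels do not tie each library to a mouse, and they do not say whether a transduced line was 1 clone or a pool. P-values therefore measure the spread between these libraries.

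In Wnt signalling, stabilised beta-catenin enters the nucleus and binds LEF1 or a TCF factor already sitting on DNA, which turns on target genes such as AXIN2 that feed back to restrain the pathway. In colon carcinoma the pathway is usually held on by loss of APC. A LEF1 protein that lacks the beta-catenin binding end can still occupy the DNA, and is used to block that output.

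Expression is given as TPM, a transcript abundance corrected for transcript length and scaled so that each library adds up to the same total. TPM carries no read depth, and a value of 0 means only that a gene is listed at 0. Values are listed in the order of replicates 1, 2 and 3. Changes are dnLEF1 minus Mock on the log2(TPM + 1) scale, which understates changes of low genes. A gene is said to have risen or fallen where limma's test on the 6 libraries gave a Benjamini-Hochberg adjusted p under 0.05 over all 18879 genes tested, those reaching 1 TPM in 3 or more of the libraries. In whole tissue, fewer cells of a type and less RNA per cell cannot be told apart. The human cells were those of the injected line, so marker lists of other cell types are not read as counts of such cells. Whether reads of mouse tissue entered the human values was not tested.

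The libraries carried the epithelial genes of colon carcinoma, but only part of that marker list. EPCAM, an epithelial adhesion protein, stood between 450.23 and 641.51 TPM in the 6 libraries, and KRT8, KRT18 and KRT19 of simple epithelium and VIL1 of the brush border were present in all 6. KRT20, CDX1, CDH17, GPA33 and CEACAM5, markers of more differentiated colon cells, were at or under 1.6 TPM in each library. Between 24665 and 34709 genes were above 0 per library, the highest number being that of Mock replicate 2, and mitochondrial protein-coding genes took 3.7% to 5.22% of the dnLEF1 and 4.17% to 4.93% of the Mock values. Over the genes tested in SW480, replicates varied more than in SW620: the median SD was 0.409 on the log2 scale, against 0.255 in the SW620 dnLEF1 and Mock libraries. That gene set was chosen by the SW480 libraries, and the gap over genes tested in SW620 was not computed.

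LEF1 itself checks the labels. LEF1 (chromosome 4, 108047545 to 108168956 in hg38) stood at 99.36, 50 and 47.2 TPM in the dnLEF1 libraries and at 14.75, 13.3 and 5.09 TPM in Mock. The groups did not overlap, and dnLEF1 replicate 1 was the highest. The change was 2.5 (SE 0.42), with an adjusted p of 0.0624, so LEF1 missed the threshold in the 6-library test. It passed when all 18 libraries with human values shared a fit with a variance factor per line (adjusted p = 0.0036), and over all alternatives its adjusted p ran from 0.00055 to 0.246. Transcripts of the construct and of the cell's own gene cannot be told apart in these values.

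In all, 36 of 18879 genes passed, or 0.191% of those tested. Of these, 21 rose (0.111%) and 15 fell (0.0795%), and 30 are protein coding. All 36 had groups that did not overlap, which held for 13.4% of all genes tested. An unadjusted p under 0.05 was reached by 1547 genes (8.19%), 1008 of them higher (5.34%). The median change over all genes tested was 0.06, with 55.7% of values positive and 44.3% negative. Counts of signs, unadjusted p-values and calls in the lists below are to be read against such shares. Among genes that code for protein, KRT75, CST1, CD8B, KRT13 and SYK fell most, and among all genes with a symbol the largest rises were in SMOC2, MIR205HG, LAIR2 and LYPD1. The dot plot of called genes gives every library.

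The count depended on single libraries. When dnLEF1 replicate 2 or 3 was dropped, 8 and 2 genes were called, and dropping Mock replicate 1 or 3 gave 13 and 7. Only KRT75 and SMOC2 were called in all 6 such fits. The 18-library fit with a variance factor per line called 92 of 22981 genes (0.4%), 48 higher (0.209%) and 44 lower (0.191%), and held 28 of the 36. The 8 it left out were RPL41P5, ENSG00000264281, LY6G6D, KRT6A, MGLL, HM13-AS1, TAB3-AS1 and ENSG00000273628.

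**Figure D1:**
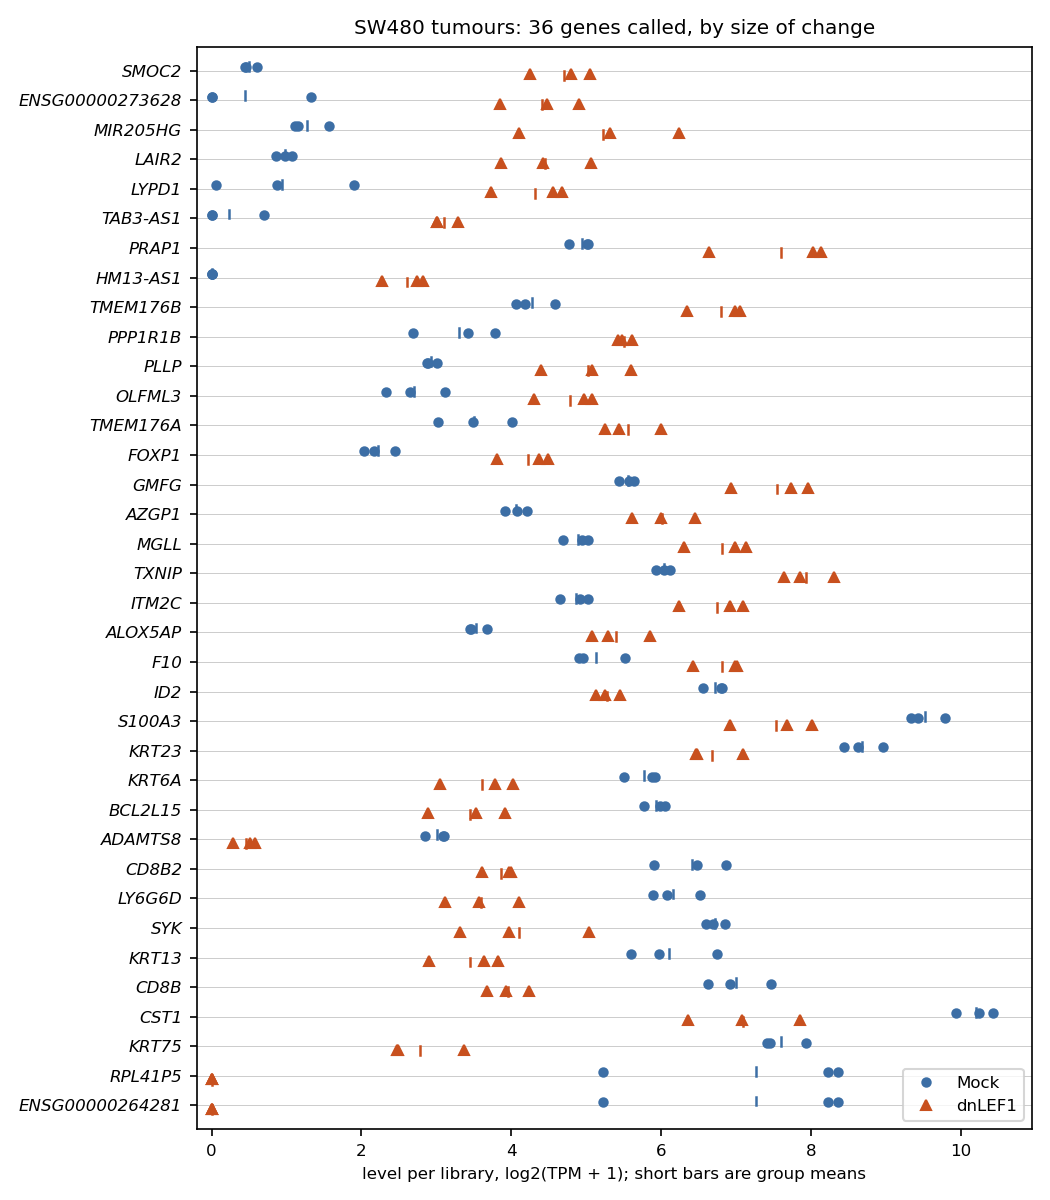
Level of each of the 36 called genes in the 6 SW480 libraries, as log2(TPM + 1), with genes ordered by size of change. Circles are the 3 Mock and triangles the 3 dnLEF1 libraries, short bars are group means, and in every row the groups are apart.

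**Figure D2:**
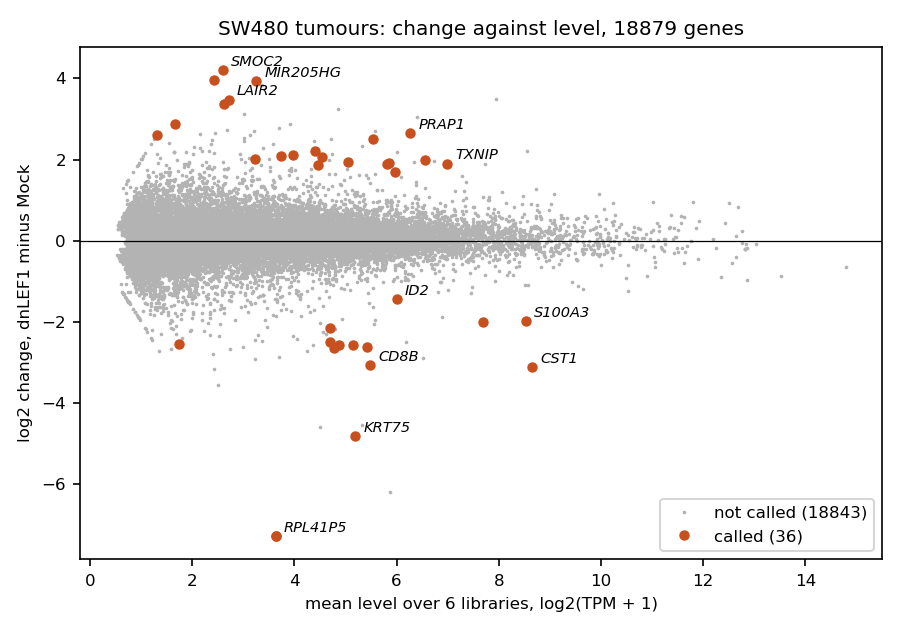
Change (dnLEF1 minus Mock, log2 scale) against mean level over the 6 libraries for the 18879 genes tested. The 36 called genes are the large points, and some grey points have changes as large without being called.

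Sequence is shown for the pair of genes whose calls held in every fit with a library left out, SMOC2 and KRT75, and for DKK1, a Wnt target whose promoter window holds the LEF1 motif more than once. The motif was searched on both strands, as CTTTGAA, also as the variant CTTTGAT, further as the variant CTTTGTA, and finally as the variant CTTTGTT, in the 300 bases from 250 before to 50 after each RefSeq start (GRCh38.p14), and the TATA box as TATAAA. The 250 bases before the start are printed 5′ to 3′ on the gene's strand, with matches in capitals.
SMOC2, chr6:168440934-168441183, plus strand: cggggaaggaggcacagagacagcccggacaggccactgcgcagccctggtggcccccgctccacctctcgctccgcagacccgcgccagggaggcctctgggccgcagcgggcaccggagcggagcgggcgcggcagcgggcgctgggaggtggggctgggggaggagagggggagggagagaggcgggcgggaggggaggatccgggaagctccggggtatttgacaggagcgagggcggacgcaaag
KRT75, chr12:52434372-52434621, minus strand: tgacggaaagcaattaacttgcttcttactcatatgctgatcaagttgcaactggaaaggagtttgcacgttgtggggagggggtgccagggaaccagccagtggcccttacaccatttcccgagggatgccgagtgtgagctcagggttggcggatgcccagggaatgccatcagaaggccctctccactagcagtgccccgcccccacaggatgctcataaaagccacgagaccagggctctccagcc
DKK1, chr10:52314031-52314280, plus strand: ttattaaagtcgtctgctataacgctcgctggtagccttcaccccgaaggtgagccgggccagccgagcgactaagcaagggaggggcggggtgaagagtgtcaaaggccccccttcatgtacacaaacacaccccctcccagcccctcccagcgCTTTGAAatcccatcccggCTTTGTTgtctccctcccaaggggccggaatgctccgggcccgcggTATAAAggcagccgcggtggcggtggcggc
Of all 35116 such windows 13.8% held the LEF1 motif and 11.5% the TATA box. The called genes had 33 windows for 21 genes, and 1 of these, of LYPD1, held the LEF1 motif (3.03%), while 2 held the TATA box (6.06%). The windows of SMOC2 and KRT75 held neither, and no match overlapped another in DKK1. In DKK1 the LEF1 motif began 95 and 76 bases before the start. A match or its lack describes only these letters in this window.

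Keratins, the intermediate filament proteins of epithelia, held 4 of the 15 genes that fell. Of 22 listed keratins 19 were tested, 4 fell and none rose, against 0.0795% that fell among all genes tested. Negative values were found for 15, and the median change was −0.48, against 0.06 over all genes. The list was written with earlier results of these data known, so its 4 falls are no result about keratins as a set. The number negative was also 15 after median-ratio scaling (median −0.56) and after rescaling over protein-coding genes (median −0.54). KRT75, a type II keratin of the hair follicle companion layer, stood at 9.35, 4.62 and 4.58 TPM in dnLEF1 and at 243.04, 174.7 and 170.47 TPM in Mock. Each Mock library was thus far above each dnLEF1 library. The group means were 6.18 ± 2.74 and 196.0 ± 40.7 TPM (SD, n = 3 each), a change of −4.82 (SE 0.3, adjusted p = 0.000384), the smallest adjusted p of all genes.

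The other 3 were keratins of stratified or reactive epithelium. KRT23, an acidic type I keratin, stood at 88.71, 135.38 and 87.8 TPM in dnLEF1 and 396.32, 498.28 and 347.86 TPM in Mock, a change of −2.0 (SE 0.24, adjusted p = 0.0157). KRT13, a keratin of stratified mucosa, stood at 6.49, 13.13 and 11.46 TPM against 47.55, 106.05 and 61.76 TPM, a change of −2.65 (SE 0.35, adjusted p = 0.0268). KRT6A, a keratin of activated epithelium, stood at 12.71, 7.24 and 15.32 TPM against 59.39, 58.12 and 44.31 TPM, a change of −2.15 (SE 0.3, adjusted p = 0.0287). The groups of all 3 were apart, but KRT6A missed the threshold in each fit with a library left out, and reads of KRT6A may be shared with its near-identical copies such as KRT6B.

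KRT75 (52424070 to 52434525) and KRT6A (52487174 to 52493257) lie in the type II cluster on chromosome 12, and KRT23 (40922696 to 40937634) and KRT13 (41500981 to 41505705) in the type I cluster on chromosome 17. Neighbours that did not pass were KRT6B at 0.86, 1.49 and 1.26 TPM against 6.27, 6.27 and 7.26 TPM (adjusted p = 0.0812), and KRT5, a basal-cell keratin, at 1103.08, 884.0 and 1182.92 TPM against 1827.31, 2083.1 and 2020.64 TPM (adjusted p = 0.132). KRT81 stood at 42.6, 84.76 and 98.93 TPM against 202.55, 189.19 and 134.52 TPM (adjusted p = 0.231). All 3 pairs of groups were apart. Of the keratins of simple epithelium, KRT18 had a change of −0.08 and KRT8 one of −0.4, both with overlapping groups, while KRT19 had −0.66 with groups apart (adjusted p = 0.341). KRT7 had the highest value of the list at 0.96 (adjusted p = 0.332). In the plot of keratins the called genes are the bottom rows, with KRT6B just above them.

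**Figure D3:**
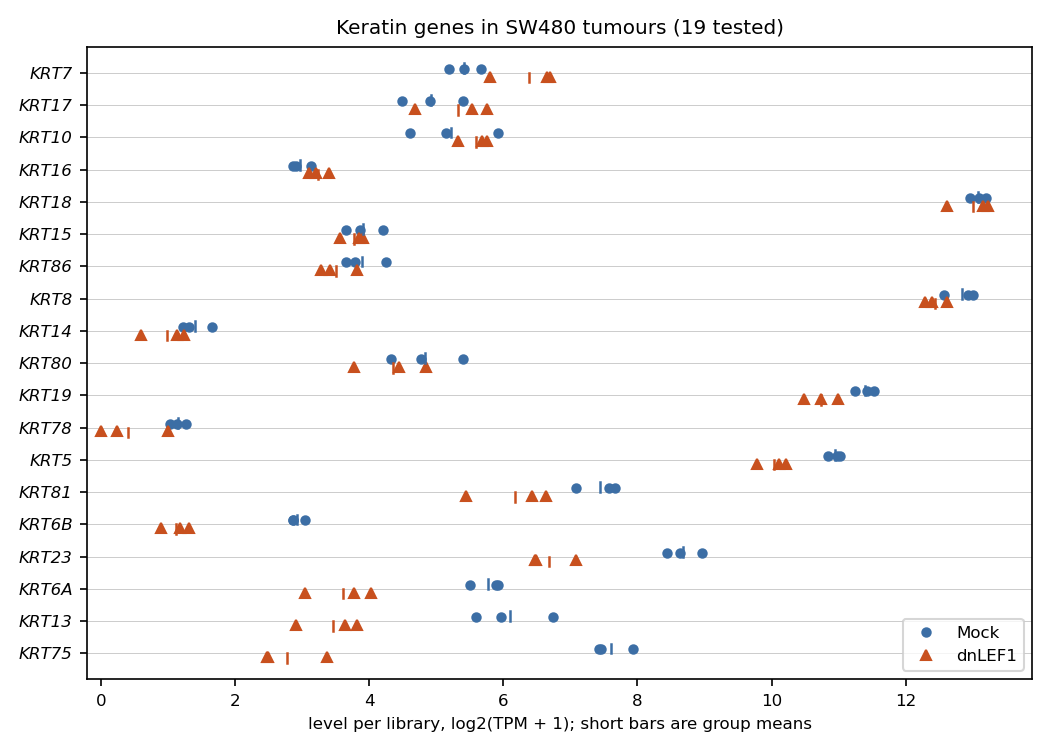
The 19 tested keratins in the 6 SW480 libraries, as log2(TPM + 1), ordered by change. Circles are Mock, triangles dnLEF1, short bars group means. KRT75, KRT13, KRT6A and KRT23 fell, while KRT8 and KRT18, the most abundant, overlap between groups.

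Several genes for secreted and surface proteins fell. CST1 (chromosome 20, 23747553 to 23751268), a secreted inhibitor of cysteine proteases, stood at 230.39, 80.82 and 134.35 TPM in dnLEF1 and at 981.43, 1213.93 and 1380.45 TPM in Mock. The lowest Mock library was far above the highest dnLEF1 library, and the change was −3.11 (SE 0.34, adjusted p = 0.0139). LY6G6D, a small membrane-anchored protein of the LY6 family, stood at 10.84, 16.22 and 7.69 TPM against 66.74, 58.18 and 91.04 TPM, a change of −2.57 (SE 0.3, adjusted p = 0.0139). It overlaps a readthrough gene with LY6G6F, whose values were lower too but did not pass (−1.63, adjusted p = 0.085), and reads may be split between them. ADAMTS8, a secreted metalloprotease, was below 1 TPM in each dnLEF1 library (0.43, 0.5 and 0.22) and at 7.61, 6.21 and 7.5 TPM in Mock, a change of −2.55 (SE 0.34, adjusted p = 0.0273).

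Both copies of the gene for the beta chain of the T-cell co-receptor CD8 fell. CD8B (chromosome 2, 86815339 to 86861924) stood at 17.92, 14.25 and 11.83 TPM in dnLEF1 and at 176.77, 98.12 and 119.99 TPM in Mock, a change of −3.06 (SE 0.28, adjusted p = 0.00455). CD8B2, at 106487364 to 106544297 on the same chromosome, stood at 11.24, 14.95 and 14.66 TPM against 115.58, 58.95 and 88.52 TPM, a change of −2.56. The copies are near-identical, so reads could be divided between them and the pair counts as uncertain. CD8A, which codes for the partner chain, stayed between 0.53 and 1.86 TPM in all 6 libraries.

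SYK, a tyrosine kinase best known from immune receptors, stood at 31.89, 8.93 and 14.72 TPM against 114.99, 102.8 and 96.09 TPM (change −2.61, SE 0.39, adjusted p = 0.0366). CD8B and SYK were both on the leukocyte list, of which 12 of 19 genes were tested, 2 fell and none rose (median change −0.07). That list was written with earlier results of these data known, so its 2 falls are no result about leukocyte genes as a set. The summed level of that list was 70.6 to 107.0 TPM in dnLEF1 and 249.0 to 345.0 TPM in Mock. Without those 2 genes the sums were 44.1 to 56.9 and 36.8 to 53.3 TPM, which overlap. The pan-leukocyte gene PTPRC was at most 3.42 TPM, the T-cell gene CD3E at most 0.55 TPM, and the macrophage gene AIF1 was listed at 0 in all 6 libraries.

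Among regulators, ID2 fell. ID2 (chromosome 2, 8678845 to 8684453) codes for an inhibitor of basic helix-loop-helix factors and is induced by BMP signals. It stood at 34.04, 42.74 and 37.03 TPM against 111.81, 110.44 and 92.98 TPM, a change of −1.45 (SE 0.21, adjusted p = 0.0313) that missed the threshold in each fit with a library left out. Within the list of BMP and TGF-beta genes, 19 of 24 were tested, ID2 was the only one called, 12 had positive values and the median was 0.08. ID3, a close relative of ID2, had values in the other direction, 7.51, 9.62 and 9.32 TPM against 3.21, 4.95 and 2.99 TPM, without passing (1.07, adjusted p = 0.307). BCL2L15, a BCL2 family member, fell from 65.57, 53.59 and 62.61 TPM in Mock to 14.17, 6.4 and 10.55 TPM in dnLEF1 (−2.49, SE 0.3, adjusted p = 0.0139). S100A3, a calcium- and zinc-binding protein of hair cuticle cells, fell from 692.15, 647.04 and 882.61 TPM to 119.89, 257.97 and 205.33 TPM (−1.98, SE 0.29, adjusted p = 0.0291). It lies within the annotated span of S100A4 on the same strand, so reads could be divided between them.

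The last 2 genes that fell are processed pseudogenes, RPL41P5 on chromosome 12 (93083598 to 93083675) and ENSG00000264281 on chromosome 5 (55944656 to 55944733). Both were listed at 0 in the 3 dnLEF1 libraries and at 298.68, 36.37 and 328.76 TPM in Mock. Their values were equal in 18 of 18 libraries with human values, so they are copies that the counting could not separate. RPL41, the ribosomal protein gene they derive from, stood between 3603.05 and 6105.27 TPM with overlapping groups. No fold is given against a group listed at 0, and with the 18-library fit the adjusted p of RPL41P5 was 0.566 (5.08e-06 to 0.566 over all alternatives).

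SMOC2 rose most among genes with a symbol. SMOC2 (chromosome 6, 168441151 to 168673445) codes for a secreted, calcium-binding protein of the extracellular matrix that is also used as a marker of intestinal stem cells. It stood at 18.06, 26.79 and 32.31 TPM in dnLEF1 and at 0.52, 0.37 and 0.36 TPM in Mock. The means were 25.7 ± 7.19 and 0.417 ± 0.0896 TPM (SD, n = 3 each), a change of 4.2 (SE 0.32, adjusted p = 0.00148). It was the only one of 19 tested matrix genes (of 25 listed) that passed. The list's median was 0.36 with 12 positive values. FN1, fibronectin, stood at 26.82, 45.19 and 19.03 TPM against 11.1, 9.09 and 4.49 TPM (1.75, adjusted p = 0.163), and LAMB3, a chain of laminin 332, at 49.77, 47.53 and 44.7 TPM against 107.13, 111.57 and 70.11 TPM (−0.98, adjusted p = 0.202). TNC, tenascin, had 1.02 (adjusted p = 0.297). The groups of all 3 were apart. The summed level of the fibroblast list (6 of 14 tested, none called, median −0.12) was 52.9 to 75.4 TPM in dnLEF1 and 22.2 to 49.4 TPM in Mock, mostly FBLN1, and COL3A1 was at most 0.23 TPM. The part of that list in the matrix values was not tested.

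MIR205HG is the host transcript of miR-205, a miRNA of basal and stratified epithelium. MIR205HG (chromosome 1, 209428820 to 209432838) stood at 16.26, 74.49 and 39.03 TPM in dnLEF1 and at 1.23, 1.17 and 1.95 TPM in Mock. The lowest dnLEF1 library was far above the highest Mock library, with a wide spread within dnLEF1, and the change was 3.95 (SE 0.48, adjusted p = 0.0178). The mature miRNAs were not measured. Both arms are shown for what the host transcript carries, from RefSeq, with bases 2 to 8, the seed that pairs with targets, in capitals.
hsa-miR-205-5p, chr1:209432166-209432187: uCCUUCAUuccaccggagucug
hsa-miR-205-3p, chr1:209432203-209432223: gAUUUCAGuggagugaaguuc

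The other genes that rose included several for surface and membrane proteins. LAIR2, a secreted collagen-binding relative of an inhibitory immune receptor, stood at 13.61, 32.56 and 20.48 TPM against 0.82, 1.1 and 0.98 TPM (3.48, SE 0.36, adjusted p = 0.0106). LYPD1, a membrane-anchored protein of the LY6 and uPAR family, stood at 12.33, 22.51 and 24.5 TPM against 2.75, 0.83 and 0.04 TPM (3.38, SE 0.48, adjusted p = 0.0287). TMEM176B and TMEM176A, a pair of related membrane proteins, are neighbours on opposite strands of chromosome 7 (150791285 to 150801360 and 150800403 to 150805120), and their annotated spans overlap. Reads of the shared stretch could be divided between them, so their rises may not be fully separate. TMEM176B stood at 80.19, 131.53 and 126.46 TPM against 15.72, 23.06 and 17.25 TPM (2.52, SE 0.27, adjusted p = 0.012). TMEM176A stood at 42.52, 36.98 and 62.74 TPM against 7.13, 10.24 and 15.07 TPM (2.05, SE 0.32, adjusted p = 0.0419), and missed the threshold in each fit with a library left out. Each dnLEF1 library exceeded each Mock library for both. PLLP, a membrane protein of myelin and epithelial endosomes, rose from 6.37, 6.42 and 7.02 TPM to 20.11, 47.65 and 32.9 TPM (2.1, adjusted p = 0.041).

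Genes for secreted proteins also rose. PRAP1, a proline-rich protein of the gut epithelium, stood at 99.0, 280.98 and 259.7 TPM against 26.42, 31.7 and 31.38 TPM (2.66, SE 0.37, adjusted p = 0.0287). Its readthrough gene with ZNF511 had values in the same direction that did not pass (1.61, adjusted p = 0.0965), and reads may be split between them. OLFML3, an olfactomedin-like matrix protein, stood at 18.83, 32.92 and 30.35 TPM against 5.3, 7.68 and 4.01 TPM (2.09, adjusted p = 0.041). AZGP1, a zinc-binding secreted glycoprotein, stood at 47.98, 86.37 and 62.73 TPM against 15.91, 17.49 and 14.12 TPM (1.95, adjusted p = 0.0287). In all 3 the dnLEF1 replicate 1 library was the lowest of its group and still above every Mock library.

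The intracellular genes that rose had mixed roles. PPP1R1B, an inhibitor of protein phosphatase 1 in dopamine signalling, stood at 42.05, 43.55 and 47.8 TPM against 5.42, 12.75 and 9.75 TPM (2.21, SE 0.31, adjusted p = 0.0287). FOXP1, a forkhead transcription factor, stood at 13.08, 21.57 and 19.69 TPM against 3.09, 4.48 and 3.5 TPM (2.01, SE 0.3, adjusted p = 0.0363). GMFG, a regulator of branched actin, stood at 121.61, 249.28 and 213.12 TPM against 49.08, 46.81 and 42.55 TPM (1.99, SE 0.28, adjusted p = 0.0287). Groups were apart in each case, and the Mock libraries were closer together than the dnLEF1 libraries for GMFG and FOXP1.

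Antisense entries among the rises are uncertain, because it is not given in the sources used here whether the counting used strand. The pseudogene entry is uncertain too, since its reads may be shared with genes of similar sequence. HM13-AS1 was listed at 0 in the 3 Mock libraries and stood at 6.05, 5.71 and 3.85 TPM in dnLEF1, while its partner HM13 stood between 196.35 and 324.4 TPM with overlapping groups. TAB3-AS1 stood at 7.06, 8.81 and 7.02 TPM against 0, 0.63 and 0 TPM, while TAB3 ranged from 1.56 to 2.37 TPM over both groups. ENSG00000273628, an unprocessed pseudogene on chromosome 13 (24933006 to 24936796), stood at 13.49, 21.26 and 28.94 TPM against 0, 1.52 and 0 TPM.

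The remaining 5 called genes had smaller rises and are named here after their values were seen. TXNIP, an inhibitor of thioredoxin that responds to glucose, stood at 199.57, 231.19 and 315.27 TPM against 68.72, 64.91 and 60.35 TPM (1.9, SE 0.23, adjusted p = 0.0139). MGLL, which splits monoacylglycerols, had a change of 1.92, and ITM2C, a membrane protein of the BRICHOS family, one of 1.89. ALOX5AP, needed for leukotriene synthesis, had 1.88, and F10, coagulation factor X, had 1.68. The groups of all 5 were apart.

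No gene of the 4 Wnt lists passed limma's test, and the 18-library fit with a variance factor per line called only LEF1 among them. The list of TCF and LEF factors and their co-factors had 21 of 22 genes tested, 14 positive values, 3 of them at an unadjusted p under 0.05, and a median of 0.09. TLE1, a co-repressor that binds TCF factors, had the next largest value after LEF1, at 3.02, 1.33 and 5.74 TPM against 0.08, 0.05 and 0.46 TPM (1.75, adjusted p = 0.291). Of 28 Wnt targets and feedback inhibitors 25 were tested, 16 had negative values, and the median was −0.26. An unadjusted p under 0.05 was reached by 3 on the lower and 1 on the higher side, against 8.19% of all genes tested over both sides. AXIN2 (chromosome 17, 65528563 to 65561647), a scaffold of the complex that degrades beta-catenin, stood at 32.51, 25.69 and 29.78 TPM in dnLEF1 and at 48.18, 61.52 and 62.02 TPM in Mock. The groups were apart, the means being 29.3 ± 3.43 and 57.2 ± 7.85 TPM (SD, n = 3 each), and the change was −0.94 (SE 0.23, adjusted p = 0.201). Its adjusted p was 0.0142 to 0.626 over all alternatives, and passed only with 18 libraries of equal weight.

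Values of the other feedback genes went both ways. NKD1 and NKD2, inhibitors of Dishevelled, had 0.43 and 0.21 with overlapping groups. DKK1, the secreted Wnt antagonist whose promoter is shown above, stood at 4.46, 3.06 and 4.8 TPM against 12.88, 7.75 and 9.4 TPM (−1.1, adjusted p = 0.308). ZNRF3, a ligase that removes Wnt receptors, stood at 8.37, 6.47 and 4.46 TPM against 10.39, 13.85 and 12.52 TPM (−0.86, adjusted p = 0.447). PROX1, a homeobox target, had the opposite sign (0.76, adjusted p = 0.467). Groups were apart for DKK1, ZNRF3 and PROX1. In the whole list they were apart for 5 of the 25 genes on the lower and 1 on the higher side, against 5.08% and 8.32% of all genes tested. LGR5, the stem-cell receptor for R-spondins, was at most 0.39 TPM and below the filter.

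Ligands and receptors had 22 of 30 genes tested, 13 positive values and a median of 0.08. At an unadjusted p under 0.05 there were 1 higher and 2 lower, as in the noncanonical list, against 8.19% of all genes tested. WNT6 stood at 1.08, 0.75 and 1.95 TPM against 6.87, 4.53 and 8.65 TPM (−1.76, adjusted p = 0.143). WNT4 had 1.08 (adjusted p = 0.536) and WNT9A −0.89 (adjusted p = 0.557). The co-receptor LRP6 had overlapping groups (0.24, SE 0.34, adjusted p = 0.937). The list of noncanonical Wnt and planar polarity genes had 18 of 20 tested, 9 positive values and a median of −0.01. Its lowest value was that of the ligand WNT5B, at 3.5, 6.23 and 3.05 TPM against 10.4, 14.24 and 15.04 TPM (−1.47, adjusted p = 0.163), and the related WNT5A had −0.84 (adjusted p = 0.445). PTK7, a co-receptor in planar polarity, had 0.74 (adjusted p = 0.408).

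**Figure D4:**
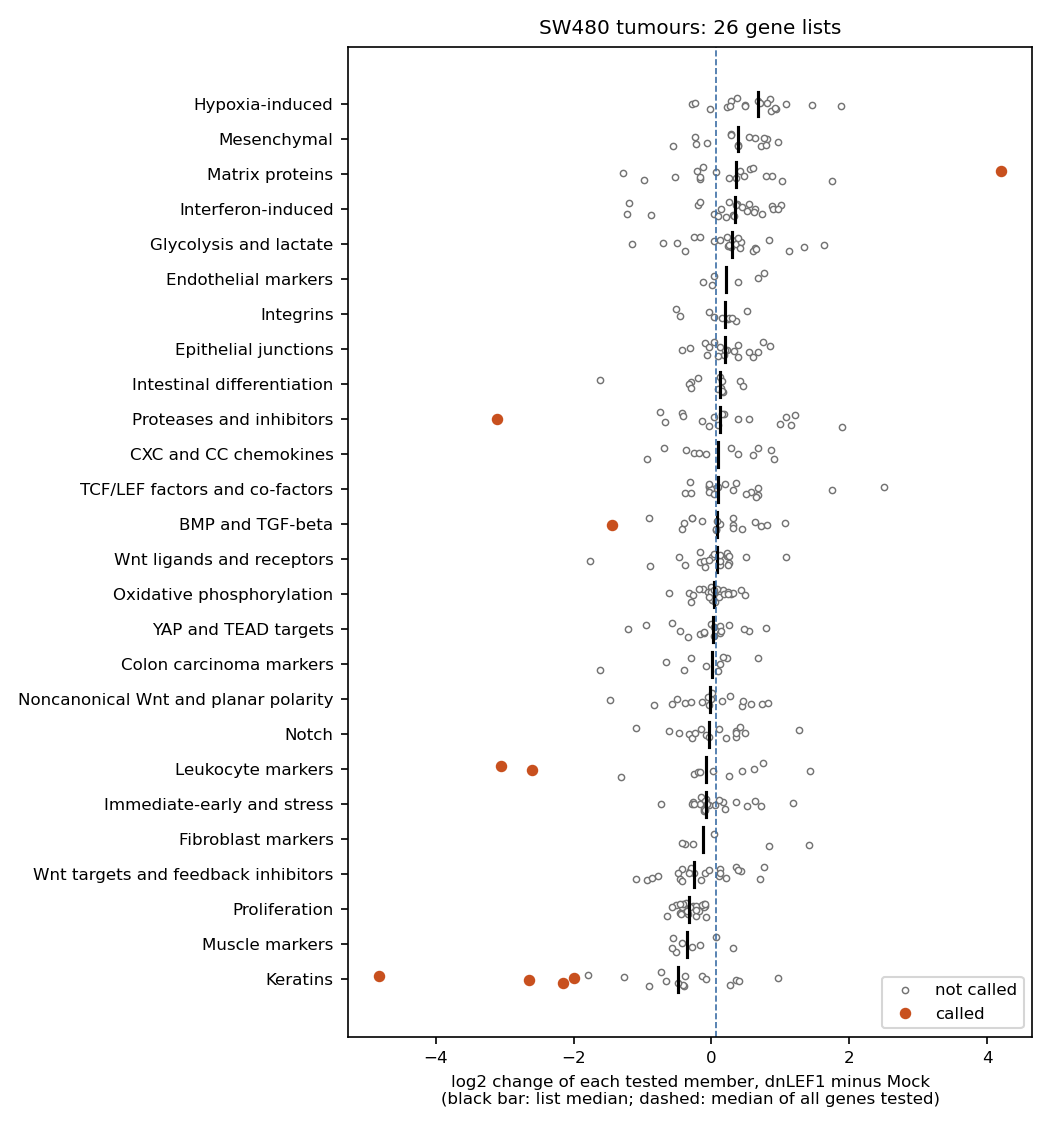
Change of each tested member of the 26 gene lists (open points, not called; filled points, called), ordered by median. Black bars are list medians and the dashed line is the median of all genes tested, 0.06. The keratin list has the lowest median (−0.48) and 4 filled points, and the hypoxia list the highest (0.67) with none.

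The study asked about invasion, and its gene lists gave few calls. Among 18 tested of 25 proteases and inhibitors only CST1 was called, and the median was 0.12. TIMP1, an inhibitor of matrix metalloproteases, stood at 1062.16, 1795.67 and 1714.45 TPM against 601.91, 735.78 and 670.06 TPM (1.15, adjusted p = 0.126), and passed in the 18-library fit with a variance factor per line (adjusted p = 0.00863). MMP11 had 1.08 (adjusted p = 0.243) and TIMP3 1.21 (adjusted p = 0.305). Of 20 mesenchymal genes 15 were tested and 11 had positive values, with a median of 0.39 and none called in either fit. At an unadjusted p under 0.05 limma gave 4, all higher, against 5.34% higher among all genes tested. S100A4, a calcium-binding protein tied to motility, had the smallest p there, at 2685.4, 3209.31 and 4083.26 TPM against 2420.91, 1985.82 and 1981.0 TPM (0.63, adjusted p = 0.405). Its reads could be divided with S100A3, which lies within its span. Epithelial junction genes (19 of 22 tested) had 14 positive values and a median of 0.19, so both lists had medians above that of all genes. Of these junction genes 2, both higher, had an unadjusted p under 0.05, and none was called in either fit. TJP3, a tight junction scaffold, had 0.85 (adjusted p = 0.496) and CDH1, E-cadherin, 0.68 with overlapping groups (adjusted p = 0.712). Integrins had 10 of 12 tested, a median of 0.2 and none at an unadjusted p under 0.05.

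No gene of the hypoxia and glycolysis lists was called. Of 22 hypoxia-induced genes 19 were tested and 16 had positive values, with a median of 0.67 (0.58 after median-ratio scaling). At an unadjusted p under 0.05 limma gave 8, all higher, against 5.34% higher among all genes tested. The 18-library fit called 2, CA9 and ANKRD37, against 0.4% of all genes in that fit. CA9, a carbonic anhydrase induced by HIF, stood at 451.05, 382.39 and 393.97 TPM against 73.94, 204.85 and 87.2 TPM. Mock replicate 2 was the highest Mock library and still below every dnLEF1 library. The change was 1.88 (SE 0.35, adjusted p = 0.0866), and the adjusted p was 0.0102 without Mock replicate 2 and 0.00877 in the 18-library fit with a variance factor per line, in a range of 0.00134 to 0.351. ANKRD37 had 1.46 (adjusted p = 0.126) and DDIT4 1.08 (adjusted p = 0.337).

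All 24 glycolysis and lactate genes were tested, 18 had positive values (17 under either rescaling), and the median was 0.29. At an unadjusted p under 0.05 there were 6 higher and 2 lower, and the 18-library fit called 1, ALDOC. Over all genes tested, 8.19% reached that p and 0.4% were called in the 18-library fit. ALDOC, an aldolase, stood at 99.56, 81.51 and 70.44 TPM against 23.62, 39.36 and 18.59 TPM (1.64, adjusted p = 0.0766). SLC16A1, a lactate transporter, had the lowest value, at 55.02, 60.09 and 53.26 TPM against 148.3, 142.38 and 93.92 TPM (−1.15, adjusted p = 0.126). Groups were apart for both. The 26 oxidative phosphorylation genes had a median of 0.03, which was −0.06 after median-ratio scaling, with 17 positive values before and 9 after it, and none with an unadjusted p under 0.05. Of 24 proliferation genes none was called. All 24 nevertheless had negative values under each of the scalings tried, against 44.3% of all genes tested before rescaling. Their values ran from −0.64 to −0.08, with a median of −0.32. At an unadjusted p under 0.05 there were 2 of the 24, and the 18-library fit called none. E2F1 had the lowest (adjusted p = 0.488), TYMS, which makes thymidylate, had −0.57 (adjusted p = 0.443), and MKI67 had −0.52 (adjusted p = 0.695).

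CDX2, the homeobox factor of intestinal identity, came close to the threshold. It stood at 9.55, 15.76 and 12.72 TPM in dnLEF1 and at 41.4, 46.24 and 34.21 TPM in Mock, with groups apart and a change of −1.62 (SE 0.26, adjusted p = 0.0578). It passed after median-ratio scaling (adjusted p = 0.0169) and rescaling over protein-coding genes (0.0304), with the stricter filter (0.0234), array weights (0.0135), the replicate block (0.0494) and 18 libraries of equal weight (0.00604). It missed in the 18-library fit with a variance factor per line (adjusted p = 0.0857) and in each fit with a library left out (0.113 to 0.272). A pseudocount of 0.1 (0.0638), no filter (0.125) and a prior that is not robust (0.0784) also left it short. Among the 27 intestinal differentiation genes 13 were tested, none was called, 1 (CDX2) had an unadjusted p under 0.05, and the median was 0.13. The colon carcinoma markers (10 of 15 tested, none called) had a median of 0.

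In the interferon-induced list 24 of 28 genes were tested, none was called, 19 had positive values (18 under either rescaling) and the median was 0.34. At an unadjusted p under 0.05 there were 4 higher and 3 lower, against 8.19% of all genes tested over both directions. The 18-library fit called 2, IFITM2 and IFITM3, both lower, against 0.4% of all genes in that fit. Members of the list split. The 3 IFITM genes, which code for antiviral membrane proteins, had negative values, IFITM3 standing at 911.31, 1021.2 and 982.14 TPM against 2269.9, 1845.12 and 2813.31 TPM (−1.23, adjusted p = 0.0589), IFITM1 having −1.19 (adjusted p = 0.0699) and IFITM2 −0.87 (adjusted p = 0.163). HLA-B, of antigen presentation, stood at 694.43, 704.36 and 721.74 TPM against 341.55, 323.92 and 490.58 TPM (0.9, adjusted p = 0.187). All 4 had groups apart. IFITM genes are close copies of each other, so reads could be divided between them.

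The other signalling lists held no called gene in either fit. At an unadjusted p under 0.05 the Notch, YAP, immediate-early and chemokine lists had 1, 0, 2 and 1 higher and 1, 2, 0 and 1 lower genes. Over all genes tested 8.19% reached that p. Notch genes (17 of 18 tested) had a median of −0.03, and HES1, a Notch target, stood at 17.71, 28.27 and 24.46 TPM against 8.53, 8.9 and 9.43 TPM (1.27, adjusted p = 0.132). YAP and TEAD targets (18 of 18) had a median of 0.02, with AMOTL2 at −1.21 (adjusted p = 0.297). Immediate-early and stress genes (22 of 22) had a median of −0.07, with DUSP5 at 1.18 (adjusted p = 0.291). Chemokines (12 of 17) had a median of 0.1. Endothelial genes (6 of 10) had a median of 0.21 and summed to 60.5 to 76.4 TPM in dnLEF1 and 65.2 to 72.8 TPM in Mock, and muscle genes (8 of 10) had a median of −0.35 and summed to 80.7 to 110.0 and 73.5 to 147.0 TPM.

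The 36 genes were also read in SW620 carrying dnLEF1 or Mock. In a fit of the 6 SW620 libraries alone, 152 of 16479 genes were called (0.922%), LEF1 among them (3.86, SE 0.22, adjusted p = 0.000122). Of the 36 genes 28 were tested there and 3 were called. BCL2L15 fell in SW620 too, from 20.07, 22.15 and 19.56 TPM in Mock to 7.33, 4.6 and 5.86 TPM (−1.66, adjusted p = 0.00942). KRT23 fell by 1.10 (adjusted p = 0.0305). AZGP1, which rose in SW480, fell in SW620 by 0.69 (adjusted p = 0.0352). Of the genes lower in SW480, 10 of 11 tested had negative values in SW620, and of those higher in SW480, 4 of 17 had positive values. The 11 count RPL41P5 and ENSG00000264281 separately, though their values are equal (−1.17, SE 3.54 in SW620). They also hold both near-identical CD8B copies. Over all SW620 genes tested 65.1% were negative, with a median of −0.12.

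The difference between lines (SW480 change minus SW620 change) was tested in the fit of 18 libraries. It was called for 94 of 22981 genes (0.409%), 71 higher (0.309%) and 23 lower (0.1%). After median-ratio scaling 37 of 69 were higher, and the median over all genes moved from 0.166 to −0.023. Of the 36 genes 22 were among the 94, but the difference contains the SW480 change by which they were called. SMOC2 differed by 3.85 (SE 0.35, adjusted p = 3.65e-05): in SW620 it stood at 19.25, 22.47 and 24.57 TPM in dnLEF1 and 24.59, 13.03 and 15.36 TPM in Mock, so SW480 Mock was the low one of the 4 groups. KRT75 differed by −4.63 (SE 0.39, adjusted p = 3.06e-05), but was at most 0.57 TPM in the 6 SW620 libraries, so that value restates the SW480 change. ID2 differed by −1.6 (SE 0.24, adjusted p = 0.00558), with overlapping groups in SW620. DKK1 differed by −2.02 (SE 0.38, adjusted p = 0.0218), its SW620 values being 53.07, 59.24 and 50.27 TPM in dnLEF1 and 39.8, 19.88 and 28.1 TPM in Mock. AXIN2 did not pass (−0.81, SE 0.31, adjusted p = 0.316).

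The number of differences called also rested on single libraries. It was 373 without SW480 dnLEF1 replicate 1, 37 without its replicate 2, 29 without its replicate 3, 39 and 55 without SW480 Mock replicates 1 and 3, and 54 without SW620 Mock replicate 3. The plot of both lines shows the genes called in SW480.

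**Figure D5:**
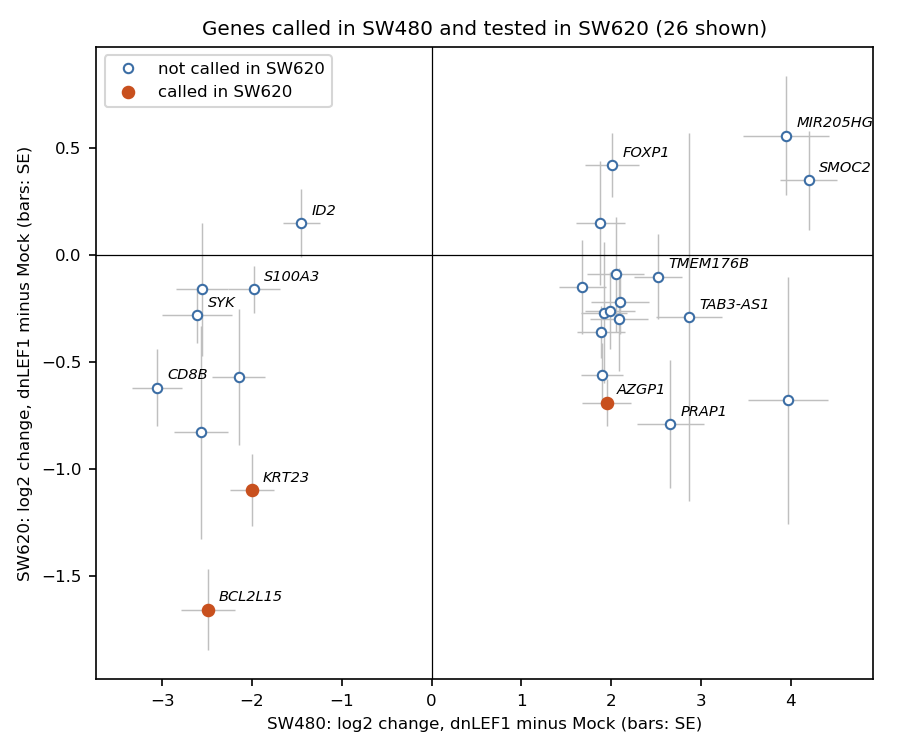
Change in SW620 against change in SW480 (dnLEF1 minus Mock, log2 scale, bars are SE) for 26 genes called in SW480 and tested in SW620, without the pair of RPL41 pseudogenes. Filled points were also called in SW620: BCL2L15 and KRT23 are lower in both lines, and AZGP1 is higher in SW480 and lower in SW620.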

How the data were processed

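Human genes of 6 SW480 libraries were analysed, with 12 SW620 libraries for comparison. Per the submitters' processing notes, the authors used Trimmomatic 0.35, Bowtie 1.2 and RSEM 1.2.31 with hg38 and mm10. The deposited values are TPM per gene, which keep no depth, so no counting interval is given. How reads of the 2 species were separated is not given in the sources used here. Identifiers were joined to GENCODE release 29 (58261 of 58381 found, and 45 second copies on chromosome Y left out).

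Genes reaching 1 TPM in 3 or more of the 6 libraries were tested with limma 3.58.1 in R 4.3.3 (trend, robust prior, log2(TPM + 1)), Benjamini-Hochberg threshold 0.05. The difference between lines used 18 libraries with a variance factor per line. The test was tried on simulated data.

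The comparison and the 26 gene lists (519 genes, 428 tested, 9 called) were chosen with earlier results of these data known. The rule named LEF1, AXIN2, LRP6 and LGR5, up to 15 largest called changes each way (symbol, at least 5 TPM in the higher group, no overlap), the 4 tested members of each list with the lowest p-values, and genes listed at 0 in 1 group and at 5 TPM or more throughout the other. Alternatives were a pseudocount of 0.1, other filters, scalings, weights and library sets, a replicate block, and each library left out. The SW620 fit, a prior that is not robust and rescaling over protein-coding genes were added after seeing the data. Promoter and miRNA sequences are RefSeq's. Python 3.11.15, pandas 2.3.3, numpy 2.4.6 and matplotlib 3.10.9 were used. Mouse genes and the PBS libraries were not used here.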

Additional observations from a re-analysis of the deposited data

Results flagged for a closer look

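Each gene here is flagged because its dnLEF1 change differed between SW480 and SW620 (limma, SW480 change minus SW620 change, Benjamini-Hochberg adjusted over 22981 genes). Shown are 30 of the 94 differences called, those of genes called in SW480 or named by the rule above. Other genes passed without being flagged, such as AKAP12 (−1.49, adjusted p = 0.0041). The 22 genes called in SW480 that are among the 30 were partly chosen by the SW480 change. The rest were named as list members with the lowest p-values in SW480, so they too were partly chosen by that change. All 30 kept their direction under each alternative tried, but not their call. After median-ratio scaling or with a pseudocount of 0.1, 25 stayed called, and 22 with the replicate block. The number was 17 without SW480 dnLEF1 replicate 3, 20 without its replicate 2, 19 without SW480 Mock replicate 1 or 3, and 21 to 30 without any other library. No group had the 4 samples needed for a test of single outlying libraries.

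Lower in SW480 than in SW620 were the differences of KRT75 (−4.63), CD8B (−2.44), CD8B2 (−2.4), SYK (−2.33), ADAMTS8 (−2.13), S100A3 (−1.82) and ID2 (−1.6), all of which fell in SW480. KRT75 and ADAMTS8 were below the filter in SW620, at most 0.57 and 0.56 TPM in its dnLEF1 and Mock libraries, so their differences restate the SW480 change. DKK1 (−2.02, adjusted p = 0.0218), IFITM2 (−1.29, adjusted p = 0.00484) and IFITM3 (−1.27, adjusted p = 0.0239) were flagged without a call in SW480 itself. IFITM2 stood at 1305.61, 1248.42 and 1084.4 TPM in SW620 dnLEF1 and at 776.44, 1017.04 and 925.87 TPM in SW620 Mock, apart in the other direction.

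Higher in SW480 were the differences of SMOC2 (3.85), LAIR2 (3.46), PRAP1 (3.45), MIR205HG (3.38), LYPD1 (3.28), AZGP1 (2.64), TMEM176B (2.62), TXNIP (2.47), OLFML3 (2.39), PPP1R1B (2.34), PLLP (2.33), GMFG (2.25), ITM2C (2.25), F10 (1.83) and FOXP1 (1.59), all of which rose in SW480. LAIR2, LYPD1 and PPP1R1B were below the filter in SW620, at most 2.1, 0.21 and 0.69 TPM in its dnLEF1 and Mock libraries, so their differences too restate the SW480 change. MIR205HG passed the filter there but was at most 1.6 TPM, so its difference largely restates the SW480 change. After median-ratio scaling LAIR2 (adjusted p = 0.051), F10 (0.0774) and FOXP1 (0.0552) missed the threshold. Genes of hypoxia, glycolysis and invasion that were not called in SW480 itself were CA9 (2.41, adjusted p = 0.0072), ALDOC (2.02), ANKRD37 (1.97), TIMP1 (1.43) and S100A4 (0.94), with adjusted p-values of 0.0214, 0.0105, 0.00722 and 0.0177 in that order. S100A4 (adjusted p = 0.331) and ANKRD37 (adjusted p = 0.0576) missed the threshold after median-ratio scaling. CA9 stood at 160.04, 130.83 and 130.33 TPM in SW620 dnLEF1 and at 161.18, 240.39 and 213.73 TPM in SW620 Mock, apart and lower in dnLEF1.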

How the results depend on the processing

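Against 36 genes called in SW480, the count was 92 with 18 libraries and a variance factor per line and 507 with equal weights, 172 with array weights, 59 with the stricter filter (mean of at least 5 TPM) and 17 with no filter. It lay between 2 and 52 when each library was left out. Against 92, the 18-library fit with equal weights gave 507. Against 94 differences between lines, equal weights gave 164 and leaving out each library 29 to 373. Against 9 list members called, the variance factor gave 17, equal weights 50, the stricter filter 15, array weights 23, and leaving out each library 2 to 8. LEF1 kept 2.5 and passed with both 18-library fits, the stricter filter and the replicate block, and passed at 2.16 with array weights. AXIN2 kept −0.94 and passed with equal weights. The cause of these shifts was not tested, except that a stricter filter or none changes how many genes are tested (11412 and 40710). Over the named genes and all alternatives, 1731 values kept direction and side of the threshold, 150 lost and 68 gained a call, and none reversed. Depth is unknown, so what it limits could not be assessed.

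Deviations of same-numbered dnLEF1 and Mock libraries had correlations of 0.01, 0 and 0.04 over genes, and others −0.05 to 0.04. Same-numbered libraries were thus no more alike than others, but whether they were handled together cannot be told from such values. With the replicate block 57 genes were called, 35 of the 36 among them, and the difference between lines was called for 64.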

Other observations

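Some genes short of the threshold that were on no list are given as values. They were picked after their values were seen, among protein-coding genes with small p, groups apart and a higher group mean of 5 TPM or more. Where to stop was arbitrary: RAB37, for one, had the same adjusted p as RNASE1 and is not described. SHH, a secreted morphogen, stood at 8.04, 13.46 and 11.06 TPM in dnLEF1 and 29.13, 34.46 and 49.59 TPM in Mock (−1.7, limma adjusted p = 0.0624). AKAP12, a scaffold for protein kinase A, stood at 131.59, 91.03 and 114.57 TPM against 245.48, 288.09 and 287.88 TPM (−1.29, adjusted p = 0.0589). CHI3L1, a secreted chitinase-like protein, stood at 16.61, 6.79 and 8.45 TPM against 78.22, 46.25 and 35.65 TPM (−2.24, adjusted p = 0.0595), and CLDN11, a tight junction claudin, at 27.48, 21.47 and 27.76 TPM against 93.07, 55.24 and 102.44 TPM (−1.63, adjusted p = 0.0624). Also lower in value were PLA2G4D, a phospholipase (−1.71, adjusted p = 0.0595), CPLX2, a complexin of vesicle release (−2.36, adjusted p = 0.0624), and PPEF2, a phosphatase (−2.15, adjusted p = 0.0754).

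On the higher side, PLAT, tissue plasminogen activator, stood at 49.26, 88.12 and 88.25 TPM against 26.37, 20.25 and 23.01 TPM (1.61, adjusted p = 0.0624). NR1H3, the sterol-sensing receptor LXR-alpha, stood at 51.65, 85.17 and 89.77 TPM against 20.58, 27.11 and 26 TPM (1.55, adjusted p = 0.0649). RNASE1, a secreted ribonuclease, stood at 198.7, 363.02 and 266.66 TPM against 116.07, 79.56 and 102.16 TPM (1.44, adjusted p = 0.0812), and PNMT, which makes adrenaline, at 31.47, 68.08 and 57.53 TPM against 14.38, 9.12 and 12.77 TPM (1.98, adjusted p = 0.0578). SPAG4 had 1.58 (adjusted p = 0.0624). C6orf15 stood at 79.07, 213.48 and 149.86 TPM against 22.28, 34.94 and 31.8 TPM (2.19, adjusted p = 0.0551).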
